A study of Mus musculus with 9 samples.

Results

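A set of 53 mouse genes known to be imprinted was followed through RNA sequencing of alveolar macrophages with and without Suz12. The genes were chosen by symbol, locus by locus, from common knowledge of mouse imprinting, and all 53 were found among the 27179 genes of the deposited count table. The macrophages were isolated from lung by fluorescence-activated cell sorting from mice aged 1 week. There were 5 libraries with the genotype Suz12 cKO, a conditional knockout of Suz12, and 4 wild type libraries, all on the C57BL/6 background and called biological replicates by the series text. The labels and the series text name no Cre driver, no deleted exons, no sex of the mice and no pooling of animals.

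Imprinted genes are expressed mainly from the allele inherited from a particular parent, and they lie in clusters governed by control regions whose DNA methylation differs between the egg and the sperm. Polycomb repressive complex 2 (PRC2), of which SUZ12 is a core subunit, methylates histone H3 at repressed genes, and at some imprinted clusters in mouse, above all in the placenta, this mark coats the silent allele. A long noncoding RNA such as Kcnq1ot1 or Airn is the agent of silencing in its cluster there. Because all mice shared an inbred background and the counts sum both alleles, a change of level here cannot be assigned to the maternal or the paternal allele.

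Suz12 served as the check of the labels. It had 11.9, 14.7, 21.8, 13.1 and 18.5 counts per 1e6 (CPM) in knockout libraries 1 to 5, against 67.5, 76.6, 51.7 and 70.7 CPM in wild type libraries 1 to 4. On the log2 scale the difference was -2.06 (SE 0.18, adjusted p = 1.69e-05 by the quasi-likelihood test of edgeR). Library totals were 18.6 to 45.6 M counts in knockout (M, 1e6) and 13.8 to 25.3 M in wild type, so the knockout libraries were on the whole deeper. Of 10 alveolar macrophage markers all passed the count filter, with a summed level of 13184 to 38311 CPM in knockout and 21124 to 58227 CPM in wild type. Without Chil3, a sum formed after seeing the data, it was 6067 to 8614 CPM in knockout and 7390 to 7457 CPM in wild type, which overlap. Marco and Ptprc were higher and Car4 and Cd68 lower in knockout (adjusted p below 0.05, edgeR), as were 8.97% and 11% of all tested genes.

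Most of the imprinted genes were silent or nearly so in these macrophages. A count filter based on library size and group size kept 22 of the 53 genes for testing, and 31 were too low. The filter kept 47.2% of all genes in the table. Of the 31, 7 had no count in any library, 20 had counts only in knockout libraries, and 4 (Peg3, Grb10, Ndn and Dcn) had a few counts in both groups. Counts in all 9 libraries were found for 18 genes.

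Among the 22 tested genes, 2 were higher in knockout (Ppp1r9a and Inpp5f), 3 were lower (Kcnq1ot1, Commd1 and Peg13) and 17 were not called at an adjusted p below 0.05. Over all 12840 tested genes 8.97% were called higher and 11% lower, or 19.9% in either direction, against 5 of the 22. The imprinted genes gave 9.09% higher and 13.6% lower, shares close to those of the table, so the number of calls says nothing particular about imprinted genes. Groups that did not overlap were found for 6 of the 22 genes, the 5 called and Mest, and for 20.8% of all tested genes. The median log2 fold change of the 22 genes was 0.09, with 12 values above 0 and 10 below, and that of all tested genes was 0.04. When libraries were scaled by their totals only, the median of all genes was 0.15, and 65.9% of the calls over all genes were higher in knockout, against 45.0% with the scaling used here.

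**Figure D1:**
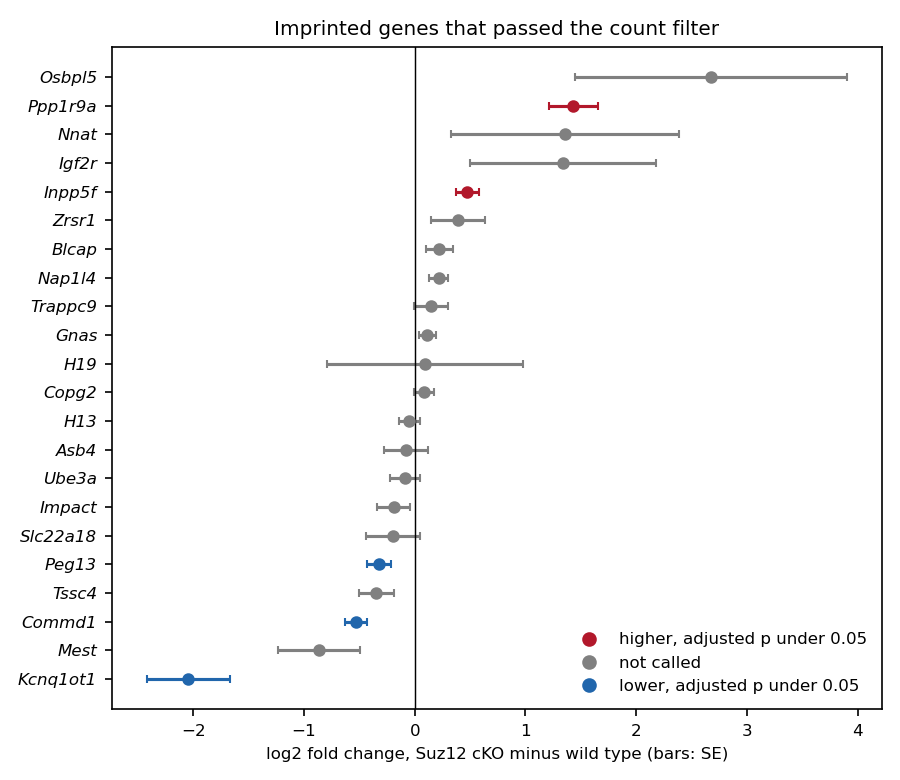
Log2 fold change of the 22 tested imprinted genes, Suz12 cKO minus wild type, with the standard error as bars; red marks genes called higher, blue genes called lower and grey genes not called. Most values lie near 0, with Ppp1r9a at 1.43 and Kcnq1ot1 at -2.05 as the called genes farthest from it. The wide bars of Osbpl5, Nnat and H19 belong to genes with few counts. Igf2r, also with a wide bar, had more counts but differed between libraries, with 69, 0, 86 and 69 counts in wild type.

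Promoter sequences are shown for the called genes that had a promoter window, which Peg13 did not. CG dinucleotides are marked, but a window need not be the control region of its cluster. A window of 300 bases, from 250 before to 50 after the annotated start, was available from RefSeq (GRCm38.p6) for 41 of the 53 genes, in 64 windows. These held a median of 14.5 CG dinucleotides, the sites of DNA methylation, and all 32851 windows of the table held a median of 7. The letters TGCCGC are the core bound in its methylated form by the imprint-protecting factor ZFP57 in mouse. They were found on either strand in 23.4% of the 64 windows and in 11.6% of all windows. Windows of a gene can overlap, as for Mest, and the matches lay in 14 of the 41 genes. The per-gene share over all genes was not computed. The letters contain a CG themselves, and a match is a description and not a bound site. One window per gene follows, with CG in capitals and read 5′ to 3′ on the strand of the gene: Ppp1r9a at chr6:4903061-4903360 (plus strand, 48 CG, at least as many in 1.22% of windows), Kcnq1ot1 at chr7:143296498-143296797 (minus strand, 9 CG), Commd1 at chr11:22982235-22982534 (minus strand, 18 CG and a TGCCGC match) and Inpp5f at chr7:128611115-128611414 (plus strand, 15 CG).
Ppp1r9a: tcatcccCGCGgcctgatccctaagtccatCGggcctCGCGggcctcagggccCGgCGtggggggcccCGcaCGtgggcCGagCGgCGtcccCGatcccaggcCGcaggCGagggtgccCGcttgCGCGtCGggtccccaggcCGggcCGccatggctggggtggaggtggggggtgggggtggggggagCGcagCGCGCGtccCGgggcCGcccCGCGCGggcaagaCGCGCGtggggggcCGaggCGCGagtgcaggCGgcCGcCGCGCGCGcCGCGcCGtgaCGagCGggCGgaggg
Kcnq1ot1: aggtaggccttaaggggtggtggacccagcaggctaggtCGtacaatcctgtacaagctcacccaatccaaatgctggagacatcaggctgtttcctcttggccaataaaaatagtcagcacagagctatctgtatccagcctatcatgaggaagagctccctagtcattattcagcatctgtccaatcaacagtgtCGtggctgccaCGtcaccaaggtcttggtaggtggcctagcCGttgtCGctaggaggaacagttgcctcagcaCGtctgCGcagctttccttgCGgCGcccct
Commd1: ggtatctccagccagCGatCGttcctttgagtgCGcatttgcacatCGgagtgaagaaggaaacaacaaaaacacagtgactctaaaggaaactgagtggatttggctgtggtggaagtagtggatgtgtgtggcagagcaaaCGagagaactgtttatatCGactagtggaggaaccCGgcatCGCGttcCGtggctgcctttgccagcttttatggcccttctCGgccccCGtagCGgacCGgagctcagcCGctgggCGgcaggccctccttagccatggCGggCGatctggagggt
Inpp5f: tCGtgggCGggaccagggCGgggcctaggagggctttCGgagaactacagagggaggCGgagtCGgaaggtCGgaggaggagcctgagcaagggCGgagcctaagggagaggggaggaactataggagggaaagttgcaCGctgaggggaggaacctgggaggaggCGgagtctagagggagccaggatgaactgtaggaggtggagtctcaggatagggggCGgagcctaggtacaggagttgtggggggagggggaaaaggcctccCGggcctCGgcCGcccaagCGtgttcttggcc

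Ppp1r9a encodes neurabin, an actin-binding scaffold for protein phosphatase 1, and is maternally expressed in mouse extraembryonic tissue. It lies at chr6:4902872-5165661 of GRCm38.p6, the build of all positions given here. Of its 2 promoter windows the one printed held 48 CG and the other 10. Its level was 25.2, 25.1, 18.8, 18.1 and 22.0 CPM in the knockout libraries, against 6.62, 8.05, 5.40 and 12.1 CPM in wild type. Every knockout library was above every wild type library, as was the case for 10.9% of all tested genes. The means were 21.8 ± 3.35 CPM in knockout (SD, n = 5) and 8.05 ± 2.92 CPM in wild type (SD, n = 4). The difference was 1.43 on the log2 scale (SE 0.22, adjusted p = 0.000539, edgeR).

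The gene has Peg10 as an imprinted neighbour, whose annotated start is 155.6 kb away. Peg10, a retrotransposon-derived paternally expressed gene needed for the placenta, had raw counts of 14, 17, 2, 2 and 29 in knockout and 0 in every wild type library. Sgce, the epsilon-sarcoglycan gene that shares the Peg10 promoter region, had 29, 16, 8, 1 and 6 counts in knockout and likewise 0 in wild type. Both were too low for the filter; every knockout library held a count and no wild type library did. Relative to an assumed floor of 3 counts over the wild type group (TMM-scaled totals), knockout was 9.39-fold for Peg10 and 8.80-fold for Sgce. These ratios are not lower bounds, because counting error in knockout and differences between libraries are left out. Wild type counts of a low gene could lie in a single library, as for Peg3 with 0, 0, 0 and 26. Asb4, a subunit of a ubiquitin ligase farther along, had 10.2 ± 2.35 CPM in knockout and 10.8 ± 1.05 CPM in wild type (log2 fold change -0.08, adjusted p = 0.817, edgeR), and Calcr, the calcitonin receptor, had 2 counts in knockout and none in wild type. Among other imprinted genes of the same region, from a second list of 33 genes, the paraoxonases Pon3 and Pon2 were lower, with log2 fold changes of -0.38 (adjusted p = 0.00701) and -0.31 (adjusted p = 0.0479, edgeR). Pon2 was called in 1 of 9 fits with a library left out. The 10 listed genes of the region thus gave 1 higher and 2 lower of 5 tested, against 8.97% and 11% of all tested genes. The region was delimited after the values were seen.

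Inpp5f, an inositol phosphatase with an imprinted isoform that is paternally expressed in mouse brain, was higher in knockout. The gene lies at chr7:128611181-128696436. It had 42.6, 43.0, 48.1, 40.0 and 47.3 CPM in knockout libraries, against 31.6, 32, 29.1 and 34.5 CPM in wild type. Again no library overlapped the other group. The log2 fold change was 0.48 (SE 0.11, adjusted p = 0.00598, edgeR), and 0.33 (adjusted p = 0.0416) once a dependence of the fold changes on gene length was removed. Counts are per gene, so the imprinted isoform cannot be told from the others.

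**Figure D2:**
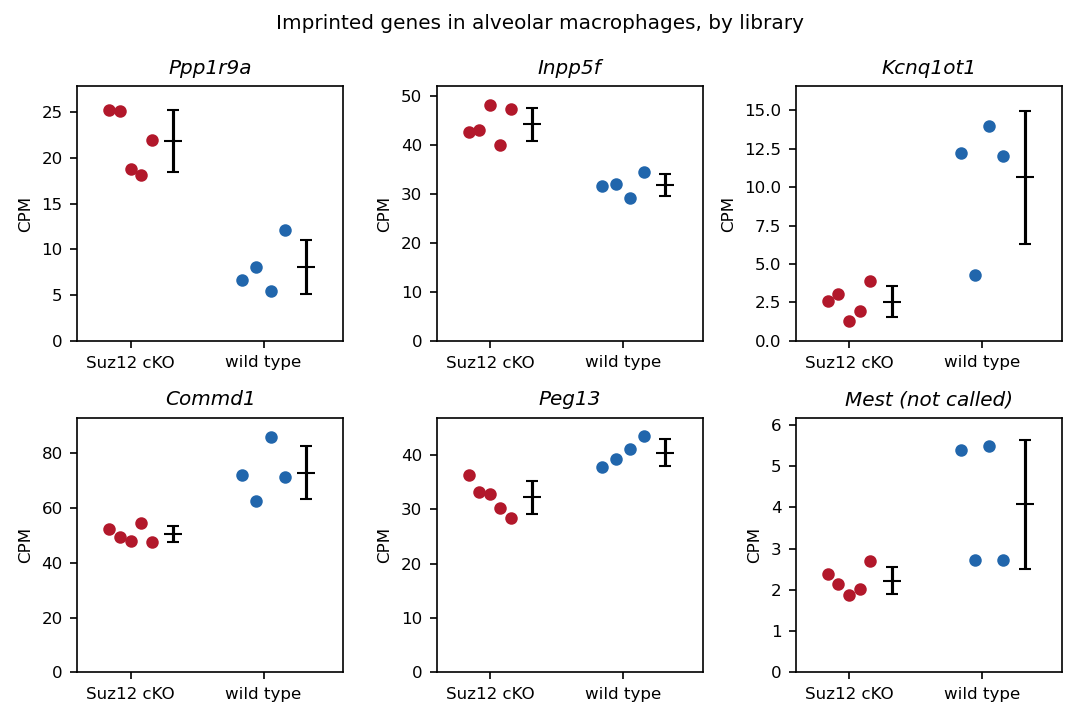
CPM of the 5 called imprinted genes and of Mest in each library (points, Suz12 cKO in red and wild type in blue), with the mean and SD beside each group. The groups do not overlap in any panel; Kcnq1ot1 shows a wild type library at 4.29 CPM, close to the knockout libraries, and 3 at 12 to 14 CPM.

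Kcnq1ot1 is the long noncoding RNA, made from the paternal allele, that silences neighbouring genes of the Kcnq1 cluster in mouse placenta, and its promoter lies in the control region of that cluster. The annotated gene spans chr7:143213111-143296547. It had 2.58, 3.07, 1.31, 1.92 and 3.89 CPM in knockout, against 12.2, 4.29, 14 and 12 CPM in wild type. All knockout libraries were below all wild type libraries, as for 9.87% of tested genes, though wild type library 2 stood apart from the other wild type libraries. Mean levels were 2.55 ± 1.0 CPM in knockout (SD, n = 5) and 10.6 ± 4.32 CPM in wild type (SD, n = 4). These counts were spread over a counted length of 83437 bases. Per kilobase the mean over all libraries was 0.0736 CPM, the lowest of the 22 tested imprinted genes. The difference was -2.05 on the log2 scale (SE 0.37, adjusted p = 0.00174, edgeR). Kcnq1ot1 and Kcnq1 share 121 annotated exonic bases on opposite strands. With each library left out in turn the difference stayed between -2.31 and -1.87 and was called each time.

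None of the tested neighbours of Kcnq1ot1 was called higher. Cdkn1c, an inhibitor of cyclin-dependent kinases, from the second list, had 1.43 ± 0.361 CPM in knockout and 1.28 ± 1.03 CPM in wild type (log2 fold change 0.18, SE 0.65, adjusted p = 0.881, edgeR). Slc22a18, an organic cation transporter, was at -0.20 (adjusted p = 0.627) and Tssc4, a spliceosome factor, at -0.35 (adjusted p = 0.148; -0.46 and 0.0421 without wild type library 2). Nap1l4, a histone chaperone, had 174, 152, 180, 171 and 160 CPM in knockout, against 156, 140, 153 and 128 CPM in wild type, groups that overlap (log2 fold change 0.22, adjusted p = 0.102; 0.33 and 0.0139 when scaled by library totals). Osbpl5, an oxysterol-binding protein, had 1.29, 1.99, 0.507, 0.932 and 0.293 CPM in knockout, against 0.593, 0, 0 and 0 CPM in wild type, and was not called (2.68, SE 1.23, adjusted p = 0.148, edgeR). Without wild type library 1, the only wild type library with counts, it was called (adjusted p = 0.0112), with all remaining wild type libraries at 0. Kcnq1, the potassium channel gene whose span contains Kcnq1ot1, Phlda2, a placental growth regulator, and Ascl2, a trophoblast transcription factor, had 2, 10 and 16 counts over the knockout libraries and none in wild type. Tspan32, a tetraspanin of the same cluster from the second list, fell to 52.6 ± 6.70 CPM in knockout, against 104 ± 18.0 CPM in wild type (log2 fold change -0.98, adjusted p = 0.000164, edgeR). Of 12 listed genes of the cluster, 8 were tested, with 3 fold changes above 0 and 5 below. Of these, 0 were called higher and 2 lower (Kcnq1ot1 itself and Tspan32), against 8.97% and 11% of all tested genes. The region was likewise delimited after the values were seen.

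**Figure D3:**
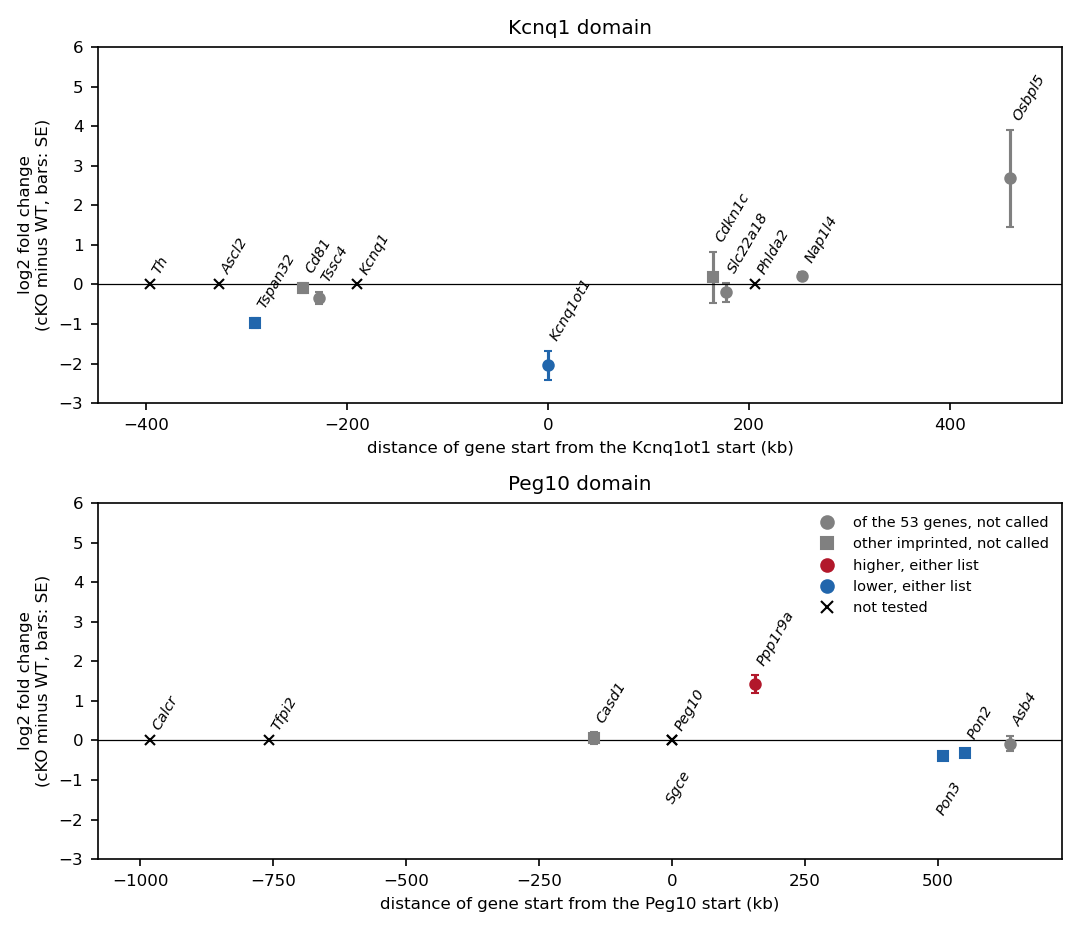
Log2 fold change (Suz12 cKO minus wild type, bars SE) of listed imprinted genes by distance of their start from that of Kcnq1ot1 or Peg10, in kb along the chromosome; circles are among the 53 genes, squares from the second list, crosses not tested and drawn at 0. Kcnq1ot1 is the lowest point of its panel and Ppp1r9a the highest of the other; Dlx5, at 0 counts in all libraries, lies outside the Peg10 panel.

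Commd1, a copper and endosomal trafficking factor with maternal bias in mouse brain, had 52.3, 49.5, 47.9, 54.4 and 47.6 CPM in knockout, against 72.1, 62.5, 85.7 and 71.0 CPM in wild type, with no overlap (log2 fold change -0.53, SE 0.10, adjusted p = 0.00233, edgeR). Besides the Commd1 promoter window printed, with 18 CG and a TGCCGC match, another held 17 CG and no match. The gene lies at chr11:22899728-22984539. It has a counted length of 818 bases and falls among the shortest tested genes (62 to 970 bases), for which the median log2 fold change was -0.42 and 504 genes were lower and 18 higher. After removal of the dependence on gene length it was no longer called (-0.18, adjusted p = 0.171). Zrsr1, the paternally expressed splicing factor gene inside the Commd1 span, had 10.9 ± 1.85 CPM in knockout and 8.28 ± 3.01 CPM in wild type (0.39, adjusted p = 0.307, edgeR). The annotated exons of Zrsr1 and Commd1 share 412 bases on opposite strands, and no source used here says whether the authors counted by strand.

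Peg13, a paternally expressed noncoding RNA at chr15:72805602-72810324 in an intron of Trappc9, had 36.4, 33.2, 32.8, 30.2 and 28.4 CPM in knockout, against 37.7, 39.2, 41.1 and 43.5 CPM in wild type. The groups did not overlap, and the call was a narrow one (log2 fold change -0.33, SE 0.11, adjusted p = 0.0492, edgeR). With a library left out it was called in 1 of 9 fits, with adjusted p from 0.0453 to 0.126. Trappc9, a subunit of a trafficking complex, was at 0.15 (adjusted p = 0.554), and the potassium channel gene Kcnk9 of the same locus had no count.

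Several tested genes had group means apart but were not called. Mest, a paternally expressed hydrolase gene, had 2.39, 2.16, 1.87, 2.02 and 2.70 CPM in knockout, against 5.38, 2.72, 5.48 and 2.74 CPM in wild type (log2 fold change -0.87, SE 0.37, adjusted p = 0.118, edgeR). Its groups did not overlap, but the lower wild type libraries lay close to the highest knockout library, and its exons share 912 bases with Copg2 on the opposite strand. Igf2r, the maternally expressed receptor that clears IGF2, had 4.52, 7.52, 13.3, 7.93 and 6.62 CPM in knockout, against 3.15, 0, 6.83 and 2.90 CPM in wild type (1.34, SE 0.84, adjusted p = 0.318). Airn, the noncoding RNA that silences Igf2r on the paternal allele in mouse, had 1 count in knockout and none in wild type. H19, the maternally expressed noncoding RNA, was at 0.633 ± 0.114 CPM in knockout and 0.580 ± 0.630 CPM in wild type (adjusted p = 0.957). Nnat, a small membrane proteolipid gene, was at 0.961 ± 0.170 CPM in knockout and 0.403 ± 0.636 CPM in wild type (adjusted p = 0.400); without wild type library 3 it was called (3.43, adjusted p = 0.0231). Blcap, the gene around it, was at 0.22 (adjusted p = 0.228, edgeR).

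The most abundant imprinted genes per kilobase of gene were Gnas (95.0 CPM per kb over all libraries), Commd1 (73.7), Nap1l4 (68.9), Copg2 (20.9), Tssc4 (16.6) and H13 (15.2). Gnas, which encodes the stimulatory G protein alpha subunit, had 669, 583, 619, 556 and 552 CPM in knockout, against 538, 541, 571 and 555 CPM in wild type, groups that overlap (log2 fold change 0.11, adjusted p = 0.348; 0.23 and 0.0430 when scaled by library totals). Copg2, a coatomer subunit, was at 0.08 (adjusted p = 0.575), with 71.7, 67.9, 62.0, 69.2 and 64.7 CPM in knockout and 57.1, 68.4, 63.3 and 64.8 CPM in wild type. Tssc4 had 21.2, 19.2, 19.7, 22.8 and 20.1 CPM in knockout and 27.4, 19.8, 35.3 and 22.7 CPM in wild type. H13, a signal peptide peptidase, was at -0.05 (adjusted p = 0.774), with 131, 152, 153, 152 and 155 CPM in knockout and 140, 155, 180 and 140 CPM in wild type. Ube3a, a ubiquitin ligase (-0.08), and Impact, a translation regulator (-0.19), were not called either.

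The genes below the filter were more often seen in knockout libraries. Of the 53 genes, 38, 40, 31, 33 and 38 had at least 1 count in the knockout libraries, against 24, 20, 20 and 22 in wild type. Thinned to the 13.8 M counts of the smallest library, the numbers were 35, 36, 26, 32 and 35 in knockout, against 24, 20, 20 and 22 in wild type, so the groups still did not overlap. With at least 3 counts required in the thinned libraries, a setting added after seeing the data, the mean was 27.4 ± 1.82 genes in knockout (SD, n = 5) and 20.8 ± 1.71 in wild type (SD, n = 4). Thinning makes the totals equal, but other differences between libraries in how low genes are counted were not tested. The whole table moved in the same direction. Genes with at least 1 count in thinned libraries numbered 14745 to 15894 in knockout and 12396 to 13297 in wild type. The means were 15269 and 12972, against 32.8 and 21.5 for the imprinted genes. Genes with 1 to 5 counts, a different measure, numbered 2169 to 2841 in knockout and 344 to 897 in wild type. Counts confined to knockout libraries were found for 20 of the 53 genes and for 13% of all genes, and counts confined to wild type for 0 of the 53 and 0.537% of all. Among genes of similar low level, with a pooled knockout level of 0.1 to 0.5 CPM, 7 of 11 imprinted genes were at 0 in all wild type libraries, against 31.9% of 2138 genes; between 0.02 and 0.1 CPM it was 8 of 8 against 72.5% of 2201. These genes were picked by their knockout level alone, which by itself favours zeros in wild type, so no conclusion is drawn from these shares. The bounds were set after the values were seen, and no test was made of the difference.

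**Figure D4:**
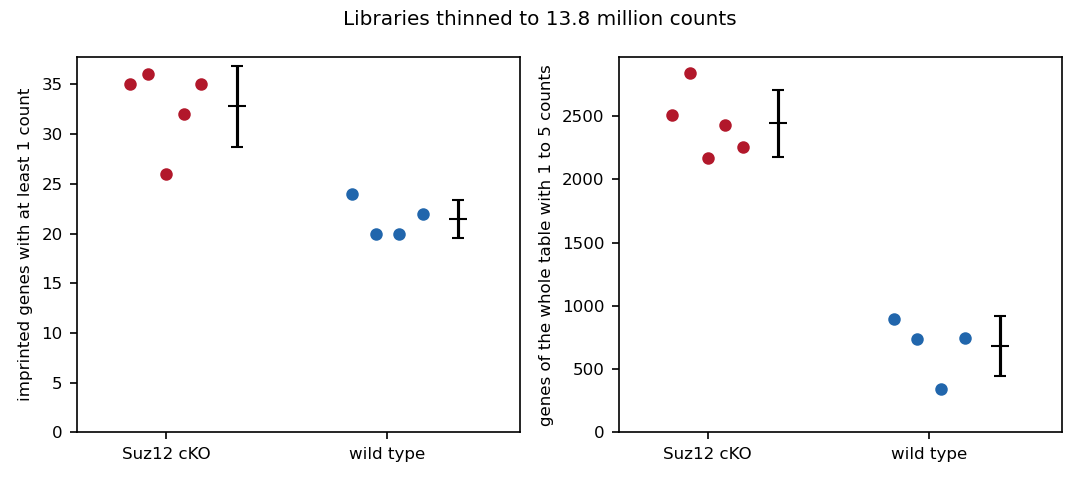
Imprinted genes with at least 1 count (left) and genes of the whole table with 1 to 5 counts (right) in each library thinned to 13.8 M counts, with mean and SD beside the points; Suz12 cKO in red, wild type in blue. Knockout libraries stand above wild type libraries in both panels.

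Igf2, the fetal growth factor gene, was among these low genes. It had 11, 28, 0, 8 and 13 counts in knockout and 0 in every wild type library. Its ratio to the floor of 3 wild type counts was 8.80, and 5.84 without knockout library 2. Such ratios are not lower bounds. Zdbf2, a paternally expressed zinc finger gene, had 4, 18, 4, 0 and 29 counts in knockout and 0 in wild type. Its ratio to the floor was 8.07, and 5.11 without knockout library 5. Plagl1, a paternally expressed zinc finger factor, had 11, 9, 4, 3 and 14 counts in knockout and 0 in wild type, a ratio to the floor of 6.02. Plagl1 had counts in all 5 knockout libraries, while Igf2 and Zdbf2 were each at 0 in 1 of them. Peg3, a paternally expressed zinc finger gene, had 8, 24, 0, 2 and 20 counts in knockout, against 0, 0, 0 and 26 in wild type, and Grb10, a growth factor receptor adaptor, had 34, 19, 13, 7 and 0 counts in knockout, against 9, 0, 0 and 0 in wild type; their groups overlap. When all genes with a count were tested, Plagl1 (adjusted p = 0.0495), Sgce (0.0394), Peg10 (0.0375) and Igf2 (0.0487) were called higher by edgeR besides Ppp1r9a and Inpp5f, and Kcnq1ot1 and Commd1 lower. Plagl1, Sgce, Peg10 and Igf2 were at 0 in every wild type library, with log2 fold changes of 5.68 to 6.36 and SE of 1.84 to 2.05. They entered that fit through their knockout counts alone, so their calls are described and not used as evidence. Of the 18406 genes in that fit, which left out the 7 imprinted genes without a count, 7.12% were called higher and 6.94% lower.

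The rest of the genes below the filter had still fewer counts. Ndn, a growth suppressor of the Snrpn cluster, had 10, 6, 9, 1 and 0 counts in knockout, against 0, 0, 0 and 3 in wild type. Dcn, the proteoglycan decorin, had 9, 4, 2, 0 and 5 counts in knockout, against 8, 0, 0 and 0 in wild type. Rasgrf1, a Ras exchange factor, had 25 counts over the knockout libraries, 17 of them in library 5, and Nap1l5, a histone chaperone relative, had 22, of which 15 were in library 5. Both were at 0 in wild type. Another 13 genes (Airn, Klf14, Kcnq1, Calcr, Htr2a, Meg3, Mkrn3, Slc38a4, Rian, Ddc, Phlda2, Dlk1 and Ascl2) had between 1 and 16 counts over the 5 knockout libraries and none in wild type. The 7 genes without a count were Usp29 and Zim1 of the Peg3 cluster, Rtl1 and Mirg of the Dlk1-Meg3 cluster, Snrpn and Magel2 of the Snrpn cluster, and Kcnk9. Within the Snrpn cluster Ube3a was thus the only tested gene, at 49.9 ± 7.65 CPM in knockout (SD, n = 5) and 52.8 ± 8.19 CPM in wild type (SD, n = 4).

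**Figure D5:**
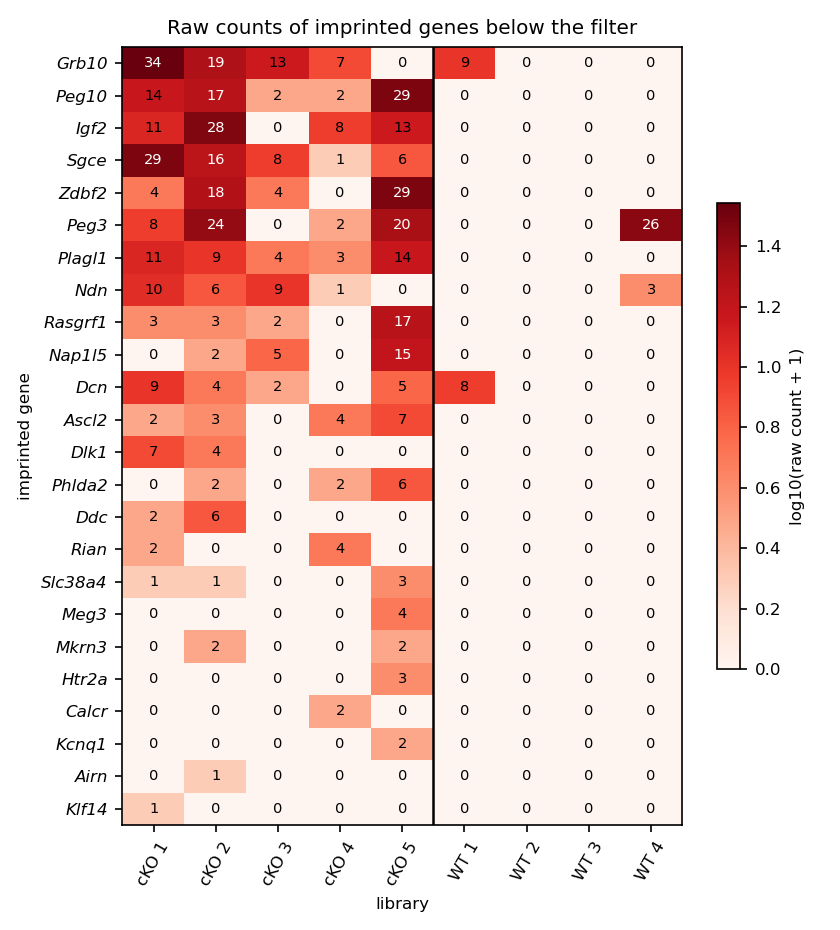
Raw counts of the imprinted genes below the count filter that had any count, by library (Suz12 cKO left of the line, wild type right), with colour on a log10(count + 1) scale. Nearly all counts fall in knockout columns; Peg3, Grb10, Ndn and Dcn are the rows with a wild type count.

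Some of these genes are known to be abundant in mesenchymal cells, so the markers of other cells are given beside them. The summed level of 10 mesenchymal markers was 1727 to 3704 CPM in knockout and 1665 to 2587 CPM in wild type, most of it Fn1, and none was called. Sums without the most abundant gene of each list were formed after seeing the data. Without Fn1 the mesenchymal sum was 11.3 to 21.3 CPM in knockout and 8.45 to 10.8 CPM in wild type, which do not overlap, with Pdgfrb and Lum at 0 in all wild type libraries. The 8 endothelial markers summed to 86.1 to 149 CPM in knockout and 126 to 176 CPM in wild type, most of it Vwf, and none was called. Without Vwf the sum was 5.09 to 7.96 CPM in knockout and 1.05 to 4.97 CPM in wild type, which do not overlap, with Tek and Emcn at 0 in all wild type libraries. The 10 epithelial markers summed to 120 to 375 CPM in knockout and 222 to 340 CPM in wild type, with Hopx called lower (log2 fold change -1.28, adjusted p = 5.4e-05, edgeR). Without Cdh1 they summed to 44.2 to 82.5 CPM in knockout and 71.5 to 108 CPM in wild type, which overlap. The 6 markers of interstitial macrophages and monocytes summed to 27.3 to 58.8 CPM in knockout and 24.2 to 48.6 CPM in wild type. Without Ccr2 that sum was 15.7 to 22.1 CPM in knockout and 6.76 to 8.25 CPM in wild type, which do not overlap. The lymphocyte, neutrophil and erythroid sums overlapped between the groups with and without their most abundant gene, and none of those markers was called. The part of such cells in the low imprinted genes was not tested; in bulk libraries fewer cells of a type and less RNA per cell cannot be told apart.

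By the allele known to be expressed, the 24 maternally expressed genes had 12 tested, 1 higher and 1 lower, and the 24 paternally expressed genes had 6 tested, 0 higher and 2 lower. Of the paternally expressed genes 12, and of the maternally expressed 8, had counts only in knockout. The remaining 5 genes, with both alleles or imprinted isoforms, gave 4 tested and 1 higher. These counts stand against 19.9% called among all tested genes and 13% of all genes seen only in knockout; the difference between the allele classes was not tested.

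Of the second list, 33 of 35 imprinted genes were in the table, 18 were tested and 5 were called, 2 higher and 3 lower, with a median log2 fold change of 0.06. The share called can be read against the 19.9% of all tested genes. Sfmbt2, a Polycomb-family gene whose imprint in mouse extraembryonic tissue depends on a maternal histone mark placed by PRC2, had 3.53, 5.17, 1.23, 4.56 and 4.87 CPM in knockout, against 0, 1.16, 0 and 0.800 CPM in wild type (log2 fold change 2.90, SE 0.89, adjusted p = 0.0335, edgeR). Gab1, an adaptor with an imprint of the same kind, had 35.2, 29.0, 36.5, 31.9 and 30.2 CPM in knockout, against 20.1, 27.3, 9.78 and 20.3 CPM in wild type (0.74, SE 0.22, adjusted p = 0.0259). All knockout libraries were above all wild type libraries for both, as for 10.9% of all tested genes. Jade1, a further gene of that kind, was not called (0.22, adjusted p = 0.341), Smoc1 missed the threshold (3.24, adjusted p = 0.0506) and Slc38a4, which is among the 53, had 5 counts in knockout and 0 in wild type. These 5 genes were set together after their values were seen. Sfmbt2 was called in 4 of 9 fits with a library left out and was not called with limma voom (adjusted p = 0.0657). Gab1 was called in 6 of 9 such fits, and was called neither after removal of the dependence on gene length (0.61, adjusted p = 0.0559) nor with Xist as a covariate (adjusted p = 0.0622).

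Of 40 genes that set, keep or read imprints, 35 were tested, 4 were higher and 2 lower, one of them Suz12 itself. Their shares, 11.4% higher and 5.71% lower, stand against 8.97% and 11% of all tested genes. Rnf2, the PRC1 ubiquitin ligase, had 35.3 ± 1.23 CPM in knockout and 22.5 ± 3.55 CPM in wild type (log2 fold change 0.65, SE 0.12, adjusted p = 0.00246, edgeR). Rbbp4, a histone-binding PRC2 subunit, was lower (-0.57, adjusted p = 0.000239). Hnrnpu, a nuclear RNA-binding protein (0.26, adjusted p = 0.0192), Dnmt3a, the de novo DNA methyltransferase (0.34, adjusted p = 0.0302), and Zfp445, which protects imprints in mouse embryos (0.46, adjusted p = 0.0378), were higher, and these 3 were not called after removal of the dependence on gene length. Dnmt3a and Zfp445 were each called in 4 of 9 fits with a library left out. Dnmt1 (-0.11, adjusted p = 0.551), which maintains methylation, Trim28 (0.12, adjusted p = 0.404), the partner of such zinc finger proteins, and Ctcf (0.01, adjusted p = 0.964), which insulates the Igf2-H19 locus, were not called, and Zfp57 had 2 counts in knockout and none in wild type.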

How the data were processed

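The authors deposited raw gene counts with Entrez identifiers and gene lengths, in a joint table of all 9 libraries and in 9 single tables that held the same values. Counts were made with featureCounts on mm10, per the submitters' processing notes; no source used here gives the aligner, the annotation release or the strand setting. Per the series text, libraries had 19 to 56 M (M, 1e6) single reads of 85 bases. Symbols and promoter windows came from RefSeq GRCm38.p6, and exon overlaps from GENCODE.

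Here the joint table was tested in R 4.3.3 with the edgeR 4.0.16 quasi-likelihood test (TMM scaling, filterByExpr by group, robust fit) over 12840 genes, with Benjamini-Hochberg adjustment over all of them and a threshold of 0.05. Fold changes are Suz12 cKO minus wild type. CPM are computed here from the deposited counts and TMM-scaled totals, and a prior count of 2 was added for log2 CPM. Alternatives were RLE or total scaling, DESeq2 1.42.0, limma 3.58.1 voom, no or a stricter filter, a replicate block, an Xist covariate, each library left out, and a loess (span 0.5) on gene length as an offset, whose robust, centred form was chosen after a first version shifted all genes. Intervals of counts cover counting error only, since no molecular identifiers are given.

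All 53 genes are accounted for. Values in every library were given for those called, the 6 most abundant per kilobase (CPM per kilobase in place of TPM) and untested genes with at least 20 counts in a library, and of the second list and the regulators the called genes were named. Any other gene named was chosen after its values were seen. The gene set and all lists were chosen with earlier results of these data known. Same-numbered libraries had correlations of -0.06 to 0.11 once group means were removed, and the main test did not pair them. Such values cannot exclude a shared litter, sort day or batch. Calculations were tested on simulated data. The result for 1 marker gene is not reported here.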

Additional observations from a re-analysis of the deposited data

Results flagged for a closer look

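In 5 of 72 groups of libraries examined, a library stood apart from the rest of its group by Dixon's criterion at the 95% level; chance flags about 1 in 20 groups. Kcnq1ot1 in wild type library 2 was at 2.12 log2 CPM, against 3.60 to 3.81 in the other wild type libraries. Osbpl5 in wild type library 1 was at -0.60 log2 CPM, against -3.92 in the others, which had no counts. Blcap in wild type library 3 was at 4.77 log2 CPM, against 4.41 to 4.46 in the others. H13 in knockout library 1 was at 7.04 log2 CPM, against 7.25 to 7.28 in the other knockout libraries, and Sfmbt2 in knockout library 3 was at 0.37 log2 CPM, against 1.85 to 2.39.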

How the results depend on the processing

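Ppp1r9a, Inpp5f and Kcnq1ot1 kept their direction and call in all 18 alternatives, and Commd1 in all but the length offset. The imprinted genes called higher numbered 2, but 4 when scaled by library totals (adding Gnas and Nap1l4) and 6 with no count filter, and 2 to 3 with a library left out. Those called lower numbered 2 to 3 throughout; Peg13 was not called with library totals (-0.21, adjusted p = 0.190), with no filter or with a library left out in 8 of 9 cases. The second list gave 5 calls, 2 to 5 with a library left out, and the regulators 6, but 10 with library totals and 4 to 8 with a library left out. With the replicate block, on knockout 1 to 4 and wild type 1 to 4, the imprinted genes gave 2 higher and 2 lower (Peg13 lost, -0.29, adjusted p = 0.182), the second list 3 (Gab1 lost, adjusted p = 0.0608) and the regulators 5; over all genes it gave 741 higher and 1121 lower, against 777 and 1100 with the same libraries unblocked and 1152 and 1409 with all 9. The mean number of imprinted genes detected was 14.5 higher in knockout, 11.3 when thinned, 10.6 with at least 3 counts and 6.65 with both, the last added after seeing the data. Of 592 single-gene values under alternatives, 536 kept their side of the threshold, 51 lost and 5 gained a call, and none of a called gene reversed; among uncalled genes H19, Copg2, Gnas, Trappc9, Ube3a, Asb4 and H13 changed sign in at least 1 alternative. The cause of these changes was not tested. Genes with a few counts are at the limit of detection at 13.8 to 45.6 M counts.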
